A study of Mus musculus with 6 samples.

Results

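The mitosis and spindle genes are 49 named genes whose products bring a cell into mitosis, condense and attach its chromosomes, build the spindle, time anaphase and divide the cytoplasm. Members were chosen by gene symbol, and each was read from the array feature annotated with that symbol alone, or from the brightest such feature by its mean over 6 arrays. A value was obtained for 47 of the 49, out of 22180 genes tested, and Ccnb1 and Ncapg were not analysed here. Expression came from hair follicle stem cells of mouse skin, sorted on CD34 and α6-integrin at postnatal day 49 and measured on Affymetrix Mouse Gene 2.0 ST arrays. The TG group was 3 samples from mice with the K14-sPLA2-IIA transgene, named for the keratin 14 promoter, which is active in basal keratinocytes, and for a secreted phospholipase A2. The WT group was 3 samples from wild-type mice of the same age, sorted in the same way. The labels give no strain, sex or transgenic line, and nothing in them states that samples of 1 genotype are separate mice, so the spread behind each p-value may be technical.

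Most mitotic genes are transcribed in G2 and early mitosis and silenced again in G1. In quiescent cells their promoters are held down by the DREAM complex, while in cycling cells B-Myb (Mybl2) and FoxM1 switch them on. Cyclin-dependent kinase 1 with its cyclins then starts mitosis, the spindle checkpoint holds anaphase until every kinetochore is attached, and the anaphase-promoting complex ends it. Hair follicle stem cells of the bulge are known for dividing rarely in the resting phase of the hair cycle, so the transcripts of these genes in a sorted population come mostly from the cells that are cycling.

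All values are deposited expression values read here as log2, and differences are TG minus WT on that scale. Array medians over all features ran from 5.90 to 5.99. Pla2g2a, which encodes secreted phospholipase A2 group IIA, read 12.61, 12.57 and 12.39 in TG cells, against 6.77, 5.75 and 5.90 in WT cells, and was the only gene of 22180 past an adjusted p of 0.05 in limma (difference 6.38 ± 0.27 SE, adjusted p = 0.00255). Without TG array 1 its adjusted p was 0.065 at a difference of 6.34. The labelled cell type was met unevenly by its markers. Of the 9 bulge genes measured, the bulge keratin Krt15 and the general basal markers Krt14 and Itga6 stayed within 13.21 to 13.50, 13.80 to 14.24 and 10.00 to 10.49 over the 6 arrays. Sox9, Nfatc1 and Lgr5 ran from 10.65 to 12.16, from 9.46 to 10.99 and from 7.04 to 10.72. Cd34, a sorting marker, had 11.57, 9.65 and 12.42 in TG cells and 9.78, 9.89 and 13.07 in WT cells. Genes of suprabasal epidermis, which the sort should leave out, averaged 11.08, 12.22 and 10.15 in TG cells and 12.26, 12.37 and 10.60 in WT cells. The 5 T cell genes measured averaged 7.70, 9.20 and 6.79 in TG cells and 8.30, 8.89 and 7.04 in WT cells. Differences were below 0 for 8 of 8 suprabasal genes, with a median of -0.41, and for all 5 T cell genes, with a median of -0.064, while 47.9% of all genes lay above 0, and 0 of these genes passed the test. Without TG array 3 the medians were 0.054 and 0.40, and without WT array 2 they were -0.094 and 0.26. In both genotypes array 3 was highest in Cd34 and lowest in these markers of other cells. Of the other marker lists, differences were above 0 for 6 of 6 fibroblast, 8 of 9 bulge and 4 of 5 endothelial genes. Their medians were 0.39, 0.29 and 0.30. Below 0 were 5 of 5 sebocyte, 5 of 6 melanocyte, 4 of 6 Langerhans cell and macrophage and 4 of 7 hair germ and matrix genes. For these the medians were -0.23, -0.16, -0.12 and -0.048, and 0 genes of these lists passed the test. The first principal component over all genes, with 64.62% of the variance, also set the arrays numbered 3 apart, at 53.25 in TG and 50.2 in WT. TG array 1 lay between, at -2.78, while TG array 2, WT array 1 and WT array 2 lay at -34.3, -32.73 and -33.65.

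Expression of the mitosis and spindle genes was higher on average in TG cells for every member measured, and no member passed the test. The differences of the 47 members ran from 0.11 for Espl1 to 1.32 for Spc25, with a median of 0.69, which corresponds to 1.61-fold. Over all 22180 genes the median difference was -0.0075 and 47.9% of genes lay above 0. The direction held for all 47 members after quantile normalization, while 2 members, Ttk and Espl1, turned negative with array weights. These weights are estimated in limma from each array's spread around its genotype's mean. They were lowest on the arrays numbered 3, at 0.332 in TG and 0.292 in WT, and highest on TG array 1, at 4.227. In RNA of a sorted population, more cells in mitosis and more of these transcripts per cell cannot be told apart.

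In limma 0 of 47 members reached an adjusted p of 0.05, where 0.00451% of all genes were called, and the adjusted p of each member was 0.99996. The SE of a member's difference was 0.14 to 0.46, and the number of arrays limits the precision. At an unadjusted p of 0.05, 24 members (51.1%) were higher in TG, against 1.93% of all genes, and 0 members were lower, against 0.843% of all genes. In 17 members (36.2%) every TG array read above every WT array, against 3.99% of all genes, and in 0 members did every TG array read below, against 3.21%. For those 17 members the exact two-sided permutation test over the 6 arrays gave p = 0.1, the smallest that 3 against 3 arrays allow. Arrays without overlap always give this value, so it adds nothing to the count. At least 1.5-fold higher in TG were 31 members, against 1.51% of all genes, and at least 2-fold higher were 4, Spc25, Ndc80, Birc5 and Ccnb2, against 0.252%. These counts moved with single arrays. Members at an unadjusted p of 0.05 numbered 37 without TG array 2 (2.48% of all genes), but 10 when TG array 3 was left out (1.98%), 9 when TG array 1 (0.843%) or WT array 2 (1.52%) was, and 8 when WT array 3 was (2.61%). Members without overlap numbered 40 without TG array 2 and 33 without WT array 1, where the share of all genes was 8.37% and 7.79%. They numbered 17 without TG array 3 (10.6% of all genes), 18 without WT array 3 (9.74%) and 18 without both of these (17.1%). After quantile normalization the 2 counts were 14 (1.7% of all genes) and 11 (3.88%). Among the 11090 genes above the median level, 46 of them members, the 2 counts were 21 (2.59% of those genes) and 17 (6.24%). Members share arrays and are transcribed together in the cell cycle, so these counts are not counts of independent observations.

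**Figure D1:**
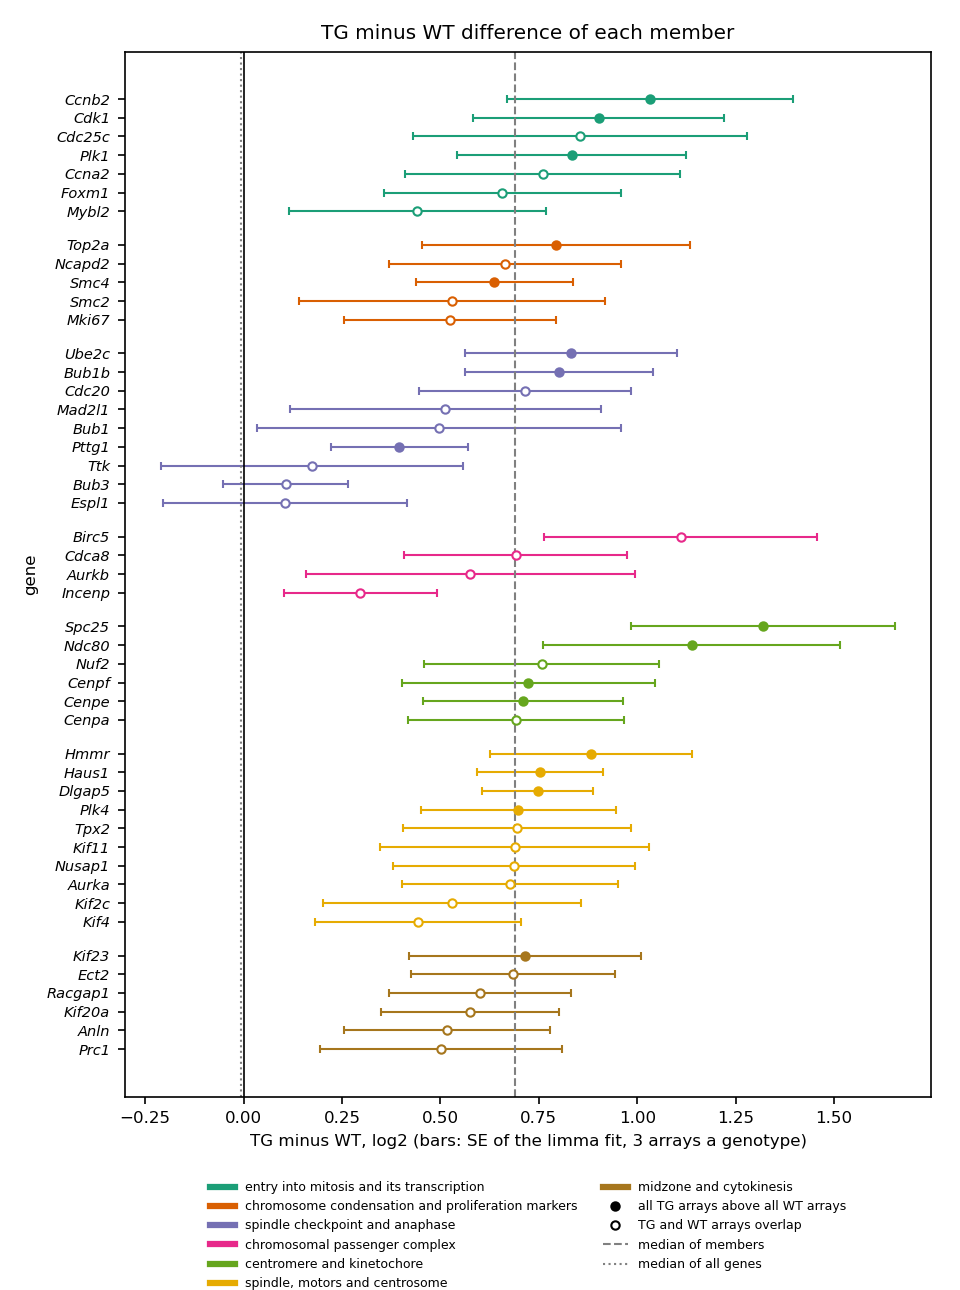
TG minus WT difference (log2) of each of the 47 measured members, grouped by role, with its standard error from limma. Filled points mark members whose TG arrays all read above the WT arrays and open points members whose arrays overlap. The dashed line is the median of the members, 0.69, the dotted line the median of all genes, and every point lies above 0, from 0.11 for Espl1 to 1.32 for Spc25.

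Array by array, the differences came mainly from the arrays numbered 3. The median over members was 8.49, 8.05 and 8.89 in TG cells, against 8.08, 7.81 and 7.60 in WT cells. TG array 2 thus lay at the level of WT array 1, and TG array 3 and WT array 3 formed the upper and lower ends. TG array 3 was the highest of all 6 arrays for 42 members, against 18.9% of all genes, and WT array 3 was the lowest for 30 members, against 25.4%. Both held for 27 members and for 2.76% of all genes. Within TG, array 2 was the lowest for 43 members, and for 6979 of all 22180 genes. The exceptions at the outer ends were Bub3, which read highest on WT array 1, and Mybl2, which read lowest on TG array 2.

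**Figure D2:**
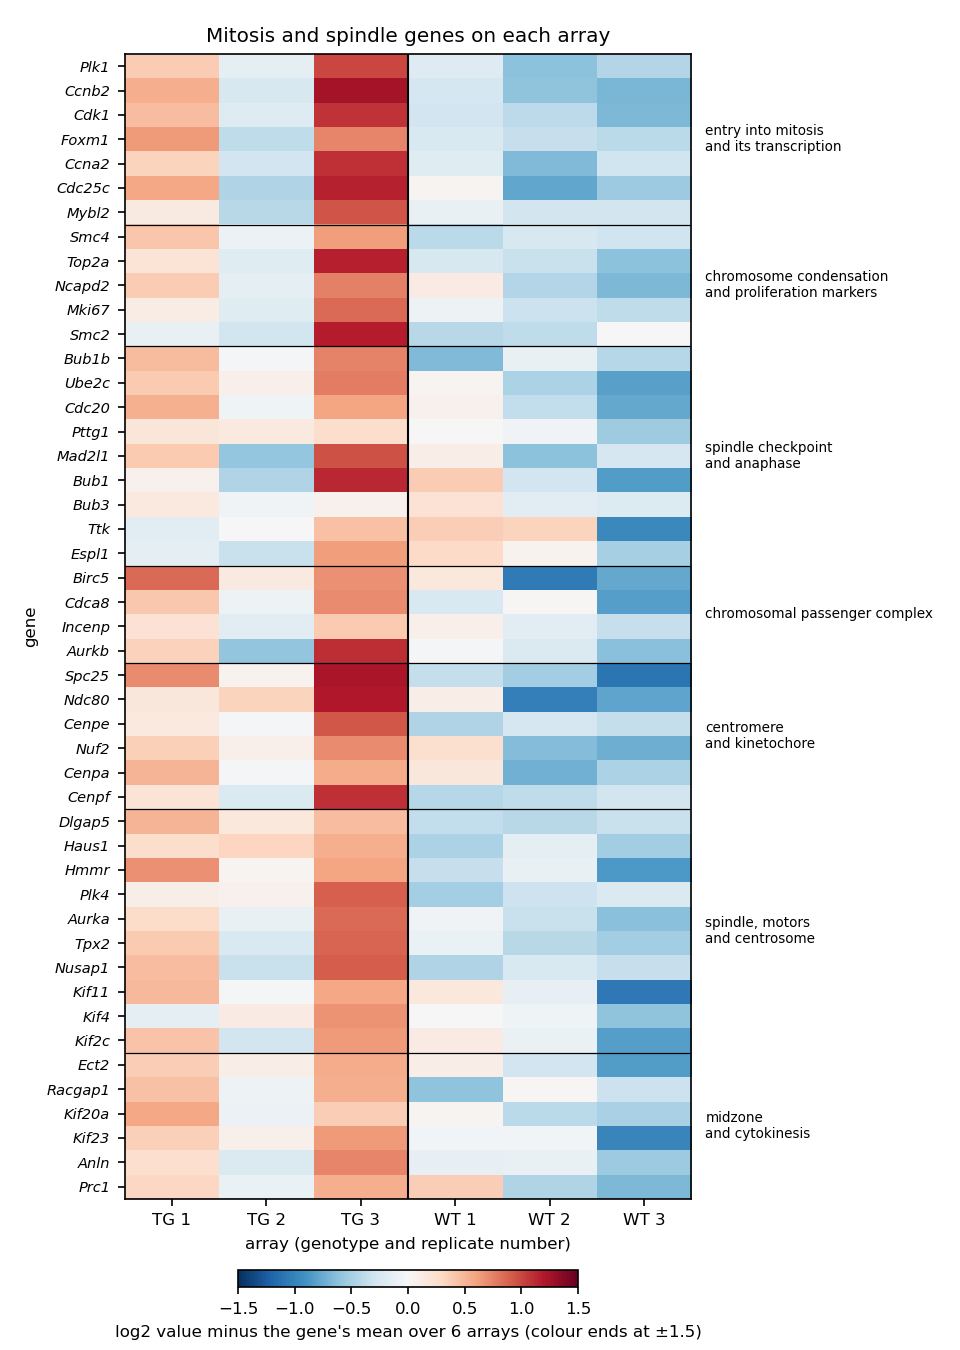
Each member's log2 value minus its mean over the 6 arrays (colour), with 3 TG arrays left of 3 WT arrays and genes grouped by role. TG array 3 is the most intense red column, being highest for 42 of 47 members, TG array 2 is near the middle of the scale, and WT array 3 is the lowest for 30 members.

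Arrays of the same number were set against each other, although the labels state no pairing. TG exceeded WT in 41 of 47 members for number 1, in 36 for number 2 and in 47 for number 3. Of all 22180 genes, 10086, 11063 and 10997 did so for numbers 1, 2 and 3. The members' median differences were 0.39, 0.18 and 1.38 for numbers 1, 2 and 3, against -0.029, -0.00020 and 0 over all genes. TG exceeded WT on all 3 numbers in 33 members, against 14.6% of all genes. Without both arrays numbered 3, the median difference of the members was 0.39 and 43 of 47 were above 0, and 5 members (10.6%) had an unadjusted p under 0.05 and were higher in TG, against 3.32% of all genes. With the replicate number as a block in limma, 28 members had one, against 4.59% of all genes, and 0 passed the adjusted threshold. The arrays numbered 3 also differed from the others in markers of other cell types, for some lists in the same direction in both genotypes and for others not. Array 3 minus the mean of arrays 1 and 2 was 0.67 in TG and -0.35 in WT for the mean level of the members. For suprabasal genes the same difference was -1.5 in TG and -1.72 in WT, for T cell genes -1.66 in TG and -1.56 in WT, and for bulge genes 0.52 in TG and 1.17 in WT. Sebocyte, endothelial and fibroblast genes also had the same sign in both genotypes, at -1.06, 0.61 and 0.18 in TG and -1.83, 0.65 and 0.13 in WT. The mean level of the 6 melanocyte genes had opposite signs, as that of the members did, at 0.38 in TG and -0.91 in WT. Not every melanocyte gene did so, since in both genotypes Mitf was highest and Mlana lowest on array 3. Opposite signs of smaller size were found for Langerhans cell and macrophage genes, at -0.25 in TG and 0.049 in WT, and for hair germ and matrix genes, at -0.030 in TG and 0.11 in WT. Arrays numbered 1 also differed by genotype in these markers. TG array 1 minus WT array 1 had a median of 1.06 over bulge, -1.01 over suprabasal and -0.37 over T cell genes. For TG array 2 minus WT array 2 these medians were 0.0093, -0.064 and 0.32. The difference left without the arrays numbered 3 is therefore not free of marker differences. The part of the cell mixture in the members' differences was not tested.

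**Figure D3:**
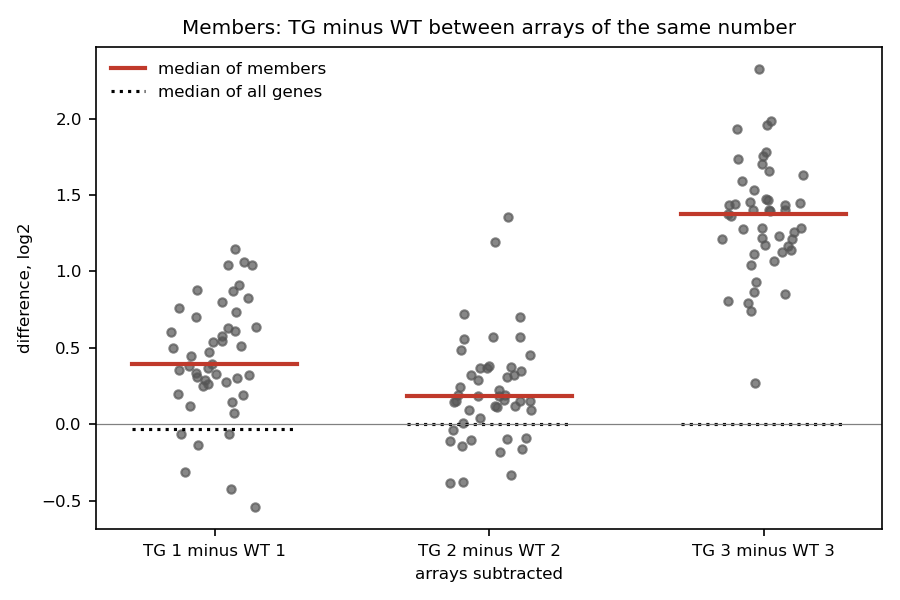
TG minus WT difference (log2) of the 47 members between arrays with the same replicate number, 1 point per member, with the median of the members and of all genes for each number. The members' medians are 0.39, 0.18 and 1.38 for numbers 1, 2 and 3, and only number 3 has all 47 members above 0.

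Among the genes that bring about entry into mitosis, 7 of 8 were measured, with a median difference of 0.83, and 3 had TG arrays entirely above the WT arrays. Those were the mitotic kinase Plk1, the B-type cyclin Ccnb2 and their partner kinase Cdk1. Plk1 read 9.98, 9.47 and 10.60 in TG cells, against 9.40, 8.98 and 9.16 in WT cells, a difference of 0.83 ± 0.29 (SE, 1.78-fold, unadjusted p = 0.0254). Ccnb2 read 9.90, 9.12 and 10.61 in TG cells, against 9.10, 8.75 and 8.68 in WT cells, and differed by 1.03 ± 0.36 (SE, 2.05-fold, unadjusted p = 0.0264). Its TG array 2 cleared the highest WT array by a margin far under the SE. Cdk1 read 9.70, 9.03 and 10.31 in TG cells, against 8.94, 8.84 and 8.55 in WT cells, with a difference of 0.90 ± 0.32 (SE, 1.87-fold, unadjusted p = 0.0267). In each of the 3 genes TG array 3 stood highest, TG array 1 came next, and TG array 2 lay close to the upper WT values. The remaining members overlapped between genotypes: the phosphatase Cdc25c, which activates Cdk1 (0.85 ± 0.42), cyclin A2 (Ccna2, 0.76 ± 0.35) and the transcription factors Foxm1 (0.66 ± 0.30) and Mybl2 (0.44 ± 0.33, each difference with SE).

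Of the chromosome condensation genes and proliferation markers, 5 of 6 were measured and their median difference was 0.64. Smc4, a core subunit of condensin, read 10.52, 10.02 and 10.73 in TG cells, against 9.69, 9.86 and 9.80 in WT cells. That is a difference of 0.64 ± 0.20 (SE, 1.56-fold, unadjusted p = 0.0164), with no overlap and a tight WT group. Top2a, the topoisomerase that untangles sister DNA, read 8.65, 8.26 and 9.61 in TG cells, against 8.21, 8.11 and 7.83 in WT cells, and differed by 0.79 ± 0.34 (SE, 1.73-fold, unadjusted p = 0.0536). Its genotypes did not overlap either, but TG arrays 1 and 2 lay much nearer to WT than TG array 3 did. Ncapd2, a condensin I subunit, read 9.11, 8.58 and 9.49 in TG cells, against 8.85, 8.29 and 8.05 in WT cells (0.66 ± 0.29 SE, 1.58-fold, unadjusted p = 0.0608). Here TG array 2 fell below WT array 1. Differences for the proliferation antigen Mki67 and for Smc2, the condensin partner of Smc4, were 0.52 ± 0.27 and 0.53 ± 0.39 (SE).

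The spindle checkpoint and anaphase genes were the role group with the lowest median, 0.50 over 9 members, and held the smallest differences of all. Bub1b, which encodes the checkpoint protein BubR1, read 7.59, 7.10 and 7.86 in TG cells, against 6.45, 7.01 and 6.69 in WT cells (0.80 ± 0.24 SE, 1.74-fold, unadjusted p = 0.0130). Ube2c, the ubiquitin-conjugating enzyme that works with the anaphase-promoting complex, read 8.66, 8.34 and 9.03 in TG cells, against 8.30, 7.79 and 7.45 in WT cells (0.83 ± 0.27 SE, 1.78-fold, unadjusted p = 0.0188). Neither gene overlapped between genotypes, but TG array 2 and the highest WT array were close in both. Cdc20, the activator of that complex at anaphase, read 10.46, 9.86 and 10.52 in TG cells, against 9.98, 9.55 and 9.15 in WT cells (0.71 ± 0.27 SE, 1.64-fold, unadjusted p = 0.0342). WT array 1 exceeded TG array 2 for Cdc20. Securin (Pttg1), which restrains separase, differed by 0.40 ± 0.17 (SE) with no overlap, and the checkpoint genes Mad2l1 and Bub1 by 0.51 ± 0.40 and 0.50 ± 0.46 (SE).

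Separase itself, encoded by Espl1, had the smallest difference of the members. It read 8.10, 7.90 and 8.86 in TG cells, against 8.53, 8.29 and 7.74 in WT cells, a difference of 0.11 ± 0.31 (SE, unadjusted p = 0.744). TG array 3 was highest and WT array 3 lowest, while the arrays numbered 1 and 2 ran the other way. The checkpoint kinase Ttk, shown after its values were seen, had the same pattern, with 7.89, 8.06 and 8.50 in TG cells, against 8.43, 8.39 and 7.09 in WT cells (0.17 ± 0.38 SE). Without both arrays numbered 3 the difference was -0.40 for Espl1 and -0.44 for Ttk. Bub3, the checkpoint protein that carries Bub1 and BubR1 to kinetochores, differed by 0.11 ± 0.16 (SE).

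All 4 chromosomal passenger complex genes were measured, with a median difference of 0.63 and overlapping arrays in each. Survivin (Birc5), which targets the complex to centromeres, read 8.53, 7.81 and 8.36 in TG cells, against 7.83, 6.62 and 6.91 in WT cells. The difference was 1.11 ± 0.35 (SE, 2.16-fold, unadjusted p = 0.0158), and the overlap was WT array 1 slightly above TG array 2. Birc5 was among the few members highest on TG array 1. Borealin (Cdca8) read 8.49, 8.01 and 8.80 in TG cells, against 7.86, 8.10 and 7.27 in WT cells (0.69 ± 0.28 SE, 1.61-fold, unadjusted p = 0.0461). The scaffold Incenp read 8.06, 7.68 and 8.24 in TG cells, against 7.92, 7.67 and 7.50 in WT cells (0.30 ± 0.19 SE, 1.23-fold, unadjusted p = 0.172). For both, TG array 2 lay among the WT values. Aurkb, the kinase of the complex, differed by 0.58 ± 0.42 (SE).

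The centromere and kinetochore genes included the 2 largest differences, with a median of 0.74 over 6 members and no member under 0.69. Spc25, Ndc80 and Nuf2 encode subunits of the NDC80 complex, the main microtubule attachment of the kinetochore. Spc25 read 8.18, 7.52 and 8.70 in TG cells, against 7.12, 6.95 and 6.37 in WT cells, a difference of 1.32 ± 0.33 (SE, 2.5-fold, unadjusted p = 0.00604). Ndc80 read 7.47, 7.63 and 8.50 in TG cells, against 7.40, 6.28 and 6.51 in WT cells, with 1.14 ± 0.38 (SE, 2.20-fold, unadjusted p = 0.0204). Neither overlapped, although WT array 1 came close to the lowest TG array for Ndc80. Cenpe, a kinesin that moves chromosomes to the spindle equator, read 7.38, 7.21 and 8.16 in TG cells, against 6.77, 6.97 and 6.87 in WT cells (0.71 ± 0.25 SE, 1.64-fold, unadjusted p = 0.0279). Nuf2 differed by 0.76 ± 0.30, the centromeric histone Cenpa by 0.69 ± 0.27 and the outer kinetochore protein Cenpf by 0.72 ± 0.32 (SE), with no overlap for Cenpf alone among these 3.

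The spindle, motor and centrosome genes held the members with the smallest p, and all 10 were measured, with a median difference of 0.69. Dlgap5, which encodes the spindle protein HURP, read 8.41, 8.05 and 8.36 in TG cells, against 7.53, 7.48 and 7.56 in WT cells, a difference of 0.75 ± 0.14 (SE, 1.68-fold, unadjusted p = 0.00129). Haus1, a subunit of the augmin complex that seeds new microtubules within the spindle, read 9.20, 9.26 and 9.48 in TG cells, against 8.46, 8.81 and 8.41 in WT cells (0.75 ± 0.16 SE, 1.69-fold, unadjusted p = 0.00251). For both genes each of the 3 TG arrays exceeded the highest WT array by more than the SE of the difference. Hmmr, a hyaluronan receptor that also binds spindle microtubules, read 7.87, 7.23 and 7.77 in TG cells, against 6.84, 7.08 and 6.32 in WT cells (0.88 ± 0.26 SE, 1.84-fold, unadjusted p = 0.0116). Plk4, the kinase that starts centriole duplication, differed by 0.70 ± 0.25 (SE), also with no overlap. Differences for the spindle kinase Aurka, its activator Tpx2, the microtubule-bundling protein Nusap1 and the motor Kif11 were 0.68, 0.69, 0.69 and 0.69, and those for the kinesins Kif2c and Kif4 were 0.53 and 0.44, all with overlapping arrays.

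The midzone and cytokinesis genes had a median difference of 0.59 over 6 members, and 1 of them, the central spindle motor Kif23, had no overlap (0.72 ± 0.30 SE). Ect2, the exchange factor that activates RhoA at the cleavage furrow, read 9.58, 9.31 and 9.77 in TG cells, against 9.31, 8.92 and 8.37 in WT cells (0.68 ± 0.26 SE, 1.61-fold, unadjusted p = 0.0349). Racgap1, the partner of Kif23 in centralspindlin, read 9.51, 8.99 and 9.62 in TG cells, against 8.47, 9.09 and 8.75 in WT cells (0.60 ± 0.23 SE, 1.52-fold, unadjusted p = 0.0370). Kif20a, a kinesin that brings the passenger complex to the midzone, read 8.37, 7.71 and 8.16 in TG cells, against 7.83, 7.38 and 7.30 in WT cells (0.57 ± 0.23 SE, 1.49-fold, unadjusted p = 0.0401). In each of the 3, TG array 2 lay at or below the highest WT array. Anln, a furrow scaffold, and Prc1, which bundles midzone microtubules, differed by 0.52 ± 0.26 and 0.50 ± 0.31 (SE).

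**Figure D4:**
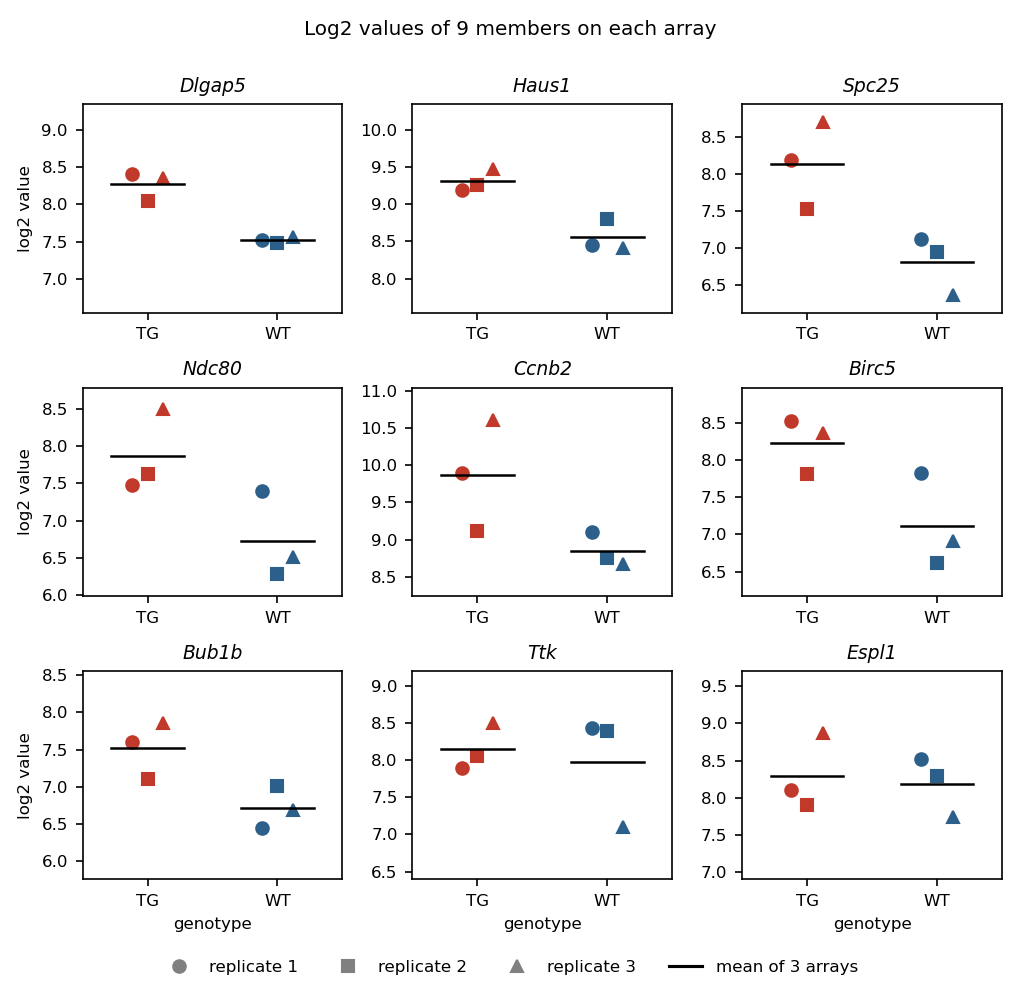
Log2 values of 9 members on each array, TG left of WT, with the replicate number given by the shape of the point and a bar at the group mean. Each vertical axis spans the same number of log2 units, so the distances compare across panels, and the spread runs from Dlgap5 and Haus1, whose genotypes stand apart, to Espl1 and Ttk, whose genotypes overlap.

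Beyond the members, 97 of 104 other listed mitosis genes were measured, and 0 passed the test. Of these 92 (94.8%) were above 0, against 47.9% of all genes, with a median difference of 0.37. TG arrays were entirely above WT in 24 (24.7%) and entirely below in 1, against 3.99% and 3.21% of all genes. The smallest p among them belonged to Cenpq, of the inner kinetochore, which read 7.17, 6.89 and 6.71 in TG cells, against 6.18, 6.34 and 6.05 in WT cells (0.73 ± 0.16 SE). Unlike most members, Cenpq was highest on TG array 1 and lowest among TG arrays on TG array 3. Arhgap11a, a RhoA regulator in cytokinesis, Cks2, a Cdk1-binding subunit, and the kinesin Kif18b differed by 0.73 ± 0.19, 1.04 ± 0.28 and 0.94 ± 0.26 (SE). The largest difference was that of Depdc1a, at 1.25 ± 0.57 (SE), with overlapping arrays. As for the members, array 3 contributed most. Between arrays of the same number the median over the 97 genes was 0.29, 0.078 and 0.70 for numbers 1, 2 and 3. Above 0 were 74, 60 and 86 of the 97. TG array 3 was highest for 57 of them and WT array 3 lowest for 49.

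Genes of DNA replication and S phase, the step before mitosis, also averaged higher in TG cells, with a lower median than the members. Of 52 listed, 49 were measured, 48 were above 0, the median difference was 0.36 and 0 passed the test. TG arrays were entirely above WT in 11 (22.4%), against 3.99% of all genes. Among the 11 were the primase subunit Prim1 (0.51 ± 0.15), the replication factors Mcm10 (0.59 ± 0.18) and Cdc45 (0.69 ± 0.24) and the helicase subunit Mcm7 (0.54 ± 0.18, each with SE). Like the members, these genes had their upper end on TG array 3, in 39 of 49, and their lower end on WT array 3, in 31. Over all genes the shares were 18.9% and 25.4%. The CDK inhibitors and pocket proteins, which hold cells out of the cycle, had a median difference of 0.0038 over 10 genes, with 5 above 0, 5 below 0 and 0 past the test. Their arrays overlapped in all 10. Cdkn1b, which encodes p27, differed by 0.32 ± 0.27, Cdkn2c by 0.35 ± 0.31 and Cdkn1c by -0.21 ± 0.19 (SE). A difference between the lists was not tested.

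What the members share beside their role was looked for in their promoters, since they move together across arrays. A window of 250 bases before and 50 after the gene start, from RefSeq (GRCm38.p6), was found for 39 of the 49 listed genes. Searched on both strands were CCAAT, the box bound by NF-Y, and TTTGAA, the core of the cell cycle genes homology region (CHR) bound by the DREAM and B-Myb complexes, with TTTAAA, another form of the CHR, counted apart. The promoters below are shown because they belong to the 4 members with the smallest p that hold CCAAT and either CHR form. They run 5′ to 3′ along the gene's strand, with every match on either strand in capitals.
Spc25: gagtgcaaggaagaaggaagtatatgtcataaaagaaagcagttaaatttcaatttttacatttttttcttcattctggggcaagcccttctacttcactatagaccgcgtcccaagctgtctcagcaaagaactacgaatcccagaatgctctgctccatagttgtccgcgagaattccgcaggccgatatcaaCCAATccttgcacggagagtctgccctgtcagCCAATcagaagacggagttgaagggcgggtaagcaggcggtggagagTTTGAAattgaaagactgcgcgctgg
Hmmr: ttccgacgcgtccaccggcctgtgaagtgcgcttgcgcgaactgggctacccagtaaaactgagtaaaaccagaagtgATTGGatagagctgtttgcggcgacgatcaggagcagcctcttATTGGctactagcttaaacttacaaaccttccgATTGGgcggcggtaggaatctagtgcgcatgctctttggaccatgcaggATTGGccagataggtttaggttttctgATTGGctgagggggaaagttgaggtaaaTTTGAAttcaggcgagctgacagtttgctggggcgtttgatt
Bub1b: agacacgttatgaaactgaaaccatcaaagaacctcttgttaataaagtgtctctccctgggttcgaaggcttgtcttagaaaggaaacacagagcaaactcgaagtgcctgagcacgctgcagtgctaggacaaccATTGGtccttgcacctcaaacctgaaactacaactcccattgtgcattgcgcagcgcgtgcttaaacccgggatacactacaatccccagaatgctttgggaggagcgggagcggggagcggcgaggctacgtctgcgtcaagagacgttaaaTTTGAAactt
Ube2c: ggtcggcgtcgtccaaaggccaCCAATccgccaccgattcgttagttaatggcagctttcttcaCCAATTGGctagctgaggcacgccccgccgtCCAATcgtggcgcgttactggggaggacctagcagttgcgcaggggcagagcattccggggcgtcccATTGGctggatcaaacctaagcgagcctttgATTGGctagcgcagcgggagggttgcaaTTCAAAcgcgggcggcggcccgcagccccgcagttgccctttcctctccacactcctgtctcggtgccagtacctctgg

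The Spc25 window (chr2:69206164-69206463, minus strand) held CCAAT at -55 and -23 and TTTGAA at 25 from the gene start. The Hmmr window (chr11:40733388-40733687, minus strand) held 5 CCAAT boxes and TTTGAA at 9. The Bub1b window (chr2:118597961-118598260, plus strand) held 1 CCAAT box at -113 and TTTGAA at 41. The Ube2c window (chr2:164769679-164769978, plus strand) held 6 CCAAT boxes and TTTGAA on the opposite strand at -29. A pair of the Ube2c boxes overlap, as 1 match on each strand.

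Of the 39 member windows, 29 (74.4%) held CCAAT, against 41.1% of 27025 genes with a window, and 19 (48.7%) held at least 2, against 13.3%. TTTGAA stood in 29 (74.4%), against 20.2% of all genes, and TTTAAA in 10 (25.6%), against 14.9%. CCAAT and TTTGAA stood together in 26 windows (66.7%), against 8.97% of all genes, and none of the 3 motifs in 5 (12.8%), against 41.8%. TTTGAA more often than CCAAT lay near the start. TTTGAA fell within 50 bases of it in 26 windows (66.7%), against 4.92% of all genes, and CCAAT in 20 (51.3%), against 13.9%. Among all matches in member windows, the median position was -1 for TTTGAA over 36 matches and -69.5 for CCAAT over 66. A match describes these letters and is neither a site shown to be bound nor a cause of any difference.

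**Figure D5:**
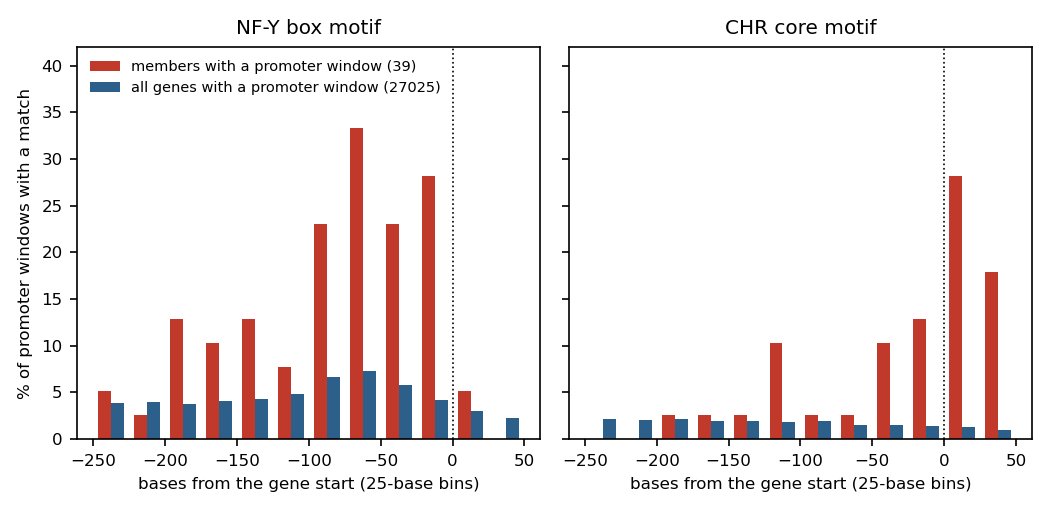
Share of promoter windows with a match (percent) in 25-base bins of distance from the gene start, for 39 members and for 27025 genes, with the NF-Y box on the left and the CHR core on the right. Matches of the CHR core in members gather around the start, while the NF-Y box is spread upstream of it with its median at -69.5.

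Median differences of members with and without the motifs were compared as a description, with no test. The 28 measured members with TTTGAA had a median difference of 0.69, and the 9 measured members with a window but no TTTGAA 0.69. With CCAAT the median was 0.69 over 27 members and without it 0.61 over 10. With CCAAT and either CHR form it was 0.69 over 26 members, against 0.53 over the 11 others with a window. The 5 members with none of the 3 motifs had a median of 0.51, against 0.69 over the other 32. Among genes outside the list, 1348 tested genes held both CCAAT and TTTGAA, and their median difference was -0.010, with 46.4% above 0 and 3.41% with TG arrays entirely above WT.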

How the data were processed

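Total RNA of sorted cells was hybridised to 6 arrays, 1 per sample, grouped by the genotype in the labels. The authors' deposited values are on a log scale read here as log2, from values between 2.85 and 14.42. Base, summarisation and scaling were not given in the sources used here, and fold changes hold only for base 2. Tools named in the submitters' processing notes are Transcriptome Analysis Console and, at version 1.4.1, Affymetrix Expression Console. Of 41345 features, 23521 have 1 symbol in the platform annotation, 1814 several and 16010 none. The brightest one-symbol feature per gene, with no filter, left 22180 genes. Among the members only Mybl2 had more than 1 feature. Its dimmer feature, with a mean of 5.56, had a difference of 0.0036, against 0.44 for the one used. A two-sided limma fit (lmFit and eBayes, with genotype as the only term, version 3.58.1 under R 4.3.3) was run on all genes with Benjamini-Hochberg adjustment and a threshold of 0.05. The fit was also run on simulated data with independent noise on each array. The arrays here were correlated, so that run does not show how the fit performs on them.

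Members and lists were chosen with earlier results of these data known. Values on every array are given for the 3 members with the smallest p in each role group, for those with the largest and smallest difference, and for Ttk. From the other lists, up to 4 genes with the smallest p and the one with the largest difference are named. Deviations of same-numbered arrays from their genotype means correlated at 0.196, 0.672 and 0.742, each over the limit of 0.1, so an alternative fit used the number as a block. No shared day or litter is stated, and TG array 2 with WT array 1 reached 0.501.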

Additional observations from a re-analysis of the deposited data

How the results depend on the processing

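Across 16 alternatives, 0 of 751 member values crossed the adjusted threshold and 9 changed sign, in 4 members. With array weights Ttk was at -0.35 and Espl1 at -0.22. Without TG replicate 3 Espl1 was at -0.18, and without WT replicate 3 Ttk was at -0.26 and Espl1 at -0.12. Without replicate 3 of both groups Ttk was at -0.44, Espl1 at -0.40, Bub1 at -0.24 and Aurkb at -0.0032. With 1 array left out, Ttk ran from -0.26 to 0.40 and Espl1 from -0.18 to 0.30. The cause was not tested. With a block for the replicate number, the median of the members stayed 0.69, the lowest adjusted p of a member was 0.531 in limma, 28 members had an unadjusted p under 0.05 (4.59% of all genes were higher at that p), and the block changed no call.

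The members' median difference was 0.67 after quantile normalization, 0.58 with array weights, 0.45 to 0.89 with 1 array left out and 0.76, 0.90 and 0.39 without both arrays numbered 1, 2 and 3. Members with an unadjusted p under 0.05 numbered 14 after quantile normalization (1.7% of all genes), 31 with array weights (7.9%) and 8 to 37 with 1 array left out (0.843% to 2.61%), 9 without TG array 1, 37 without TG array 2, 10 without TG array 3, 9 without WT array 2 and 8 without WT array 3. Members without overlap numbered 11 after quantile normalization (3.88% of all genes) and 17 to 40 with 1 array left out (5.59% to 10.6% of all genes). They numbered 40 without TG array 2 (8.37%) and 33 without WT array 1 (7.79%). Without both arrays of a number, and so with fewer arrays to overlap, they numbered 34, 40 and 18 for numbers 1, 2 and 3. The shares of all genes were then 10.2%, 11.5% and 17.1%. The 1 call over all genes, Pla2g2a, became 0 without TG array 1 (adjusted p = 0.065 in limma, difference 6.34), and 0 without both arrays numbered 2 (0.140) or 3 (0.173), so the calls with 1 array left out ran from 0 to 1. The S phase median was 0.13 without both arrays numbered 3.

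With 3 arrays a group, differences of the members' size reached no adjusted threshold. A p that misses it does not show equal levels. No detection values were used.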
